A study of Arabidopsis thaliana and Arabidopsis thaliana x Arabidopsis arenosa and Arabidopsis arenosa with 18 samples.

Results

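The genes described here are 10 ethylene response factors (ERFs) of Arabidopsis thaliana that are linked to stress responses. They were taken by locus number from the 33602 gene loci of the deposited table, and all 10 loci were in it. They are ERF105 (AT5G51190), ERF104 (AT5G61600), ERF5 (AT5G47230), ERF6 (AT4G17490), ERF1A (AT4G17500), ERF2 (AT5G47220), ERF1 (AT3G23240), ORA59 (AT1G06160), ERF4 (AT3G15210) and ERF11 (AT1G28370). Messenger RNA was sequenced 3 days after pollination in 14 libraries that form 7 groups of 2. Both A. thaliana mothers, ColA9 and C24A9, were diploid and hemizygous for a male-sterility construct, in all crosses and controls. ColA9 pollinated by Col-0 gave the Col control seeds and C24A9 pollinated by C24 gave the C24 control seeds. The same mothers pollinated by diploid A. arenosa var. Strecno gave the Col hybrid seeds, which the study calls incompatible, and the C24 hybrid seeds, which it calls compatible. Whole siliques, which hold the fruit wall and the seeds, were taken from both hybrid crosses, and seeds of A. arenosa crossed to itself were the control of the father species. The protocols name 1 A. arenosa plant for the A. thaliana and hybrid seed libraries, and a pair of plants for the silique and A. arenosa libraries. Neither seeds and siliques nor A. arenosa seeds and the other seeds can therefore be told apart from these record sets.

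ERFs are transcription factors with a single AP2/ERF DNA-binding domain, and many bind the GCC box found before defence genes. In the ethylene pathway, gas bound by receptors such as ETR1 releases EIN2 from inhibition by CTR1, and EIN2 stabilises the transcription factors EIN3 and EIL1, which switch on ERF1. Jasmonate, wounding, cold and pathogen signals act on several ERFs as well, in part through the kinases MPK3 and MPK6. ERF105, ERF104, ERF5, ERF6, ERF1A and ERF2 are activators of group IX that respond within minutes to stress. ERF1 and ORA59 are activators that join the ethylene and jasmonate signals at defensin genes. ERF4 and ERF11 belong to group VIII and carry an EAR motif, through which they repress transcription.

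Sequences before the gene starts are shown for ERF4, which was called higher in both hybrids, for ERF1A and ERF2, whose upstream windows share the longest run among the 10 genes, and for ERF11, the repressor whose estimate was lowest in Col hybrid seeds. Each is the window of 250 bases before the annotated start, read 5′ to 3′ on the gene's strand from TAIR10.1 with RefSeq gene models. ERF4 is on the plus strand (chr3:5121053-5121302), ERF1A on the plus strand (chr4:9758953-9759202), ERF2 on the minus strand (chr5:19172957-19173206) and ERF11 on the minus strand (chr1:9956981-9957230). Capitals mark the matches, on either strand, to 6 motifs: GCCGCC (the core of the GCC box), TTGACC and TTGACT (W boxes, bound by WRKY factors), ACCGAC (bound by CBF factors), CACGTG (the G box) and CGCG.
ERF4: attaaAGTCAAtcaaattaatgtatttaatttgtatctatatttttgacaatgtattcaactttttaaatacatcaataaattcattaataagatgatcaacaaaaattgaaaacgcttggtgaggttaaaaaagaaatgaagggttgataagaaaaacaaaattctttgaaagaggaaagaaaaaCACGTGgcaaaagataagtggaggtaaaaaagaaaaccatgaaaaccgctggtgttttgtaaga
ERF1A: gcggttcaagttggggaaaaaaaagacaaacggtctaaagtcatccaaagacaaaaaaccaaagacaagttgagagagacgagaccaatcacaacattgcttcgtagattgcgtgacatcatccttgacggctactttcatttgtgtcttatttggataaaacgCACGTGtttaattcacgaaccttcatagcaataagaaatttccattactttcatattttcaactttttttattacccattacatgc
ERF2: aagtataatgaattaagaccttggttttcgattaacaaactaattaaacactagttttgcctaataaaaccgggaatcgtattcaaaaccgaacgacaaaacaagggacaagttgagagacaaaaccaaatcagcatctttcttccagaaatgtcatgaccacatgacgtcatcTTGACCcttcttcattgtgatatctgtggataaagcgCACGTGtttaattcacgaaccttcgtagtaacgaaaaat
ERF11: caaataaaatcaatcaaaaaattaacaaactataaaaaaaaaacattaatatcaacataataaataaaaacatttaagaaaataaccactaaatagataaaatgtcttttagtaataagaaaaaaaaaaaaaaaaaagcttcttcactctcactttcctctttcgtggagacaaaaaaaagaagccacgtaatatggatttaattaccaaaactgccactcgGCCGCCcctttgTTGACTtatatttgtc

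CACGTG was present in 4 of the 10 windows (ERF1A, ERF2, ORA59 and ERF4) and in 6.49% of 27443 windows of protein-coding genes. TTGACT was present in 4 of 10, among them ERF4 and ERF11, and in 19.1% of all windows, and TTGACC in 1 of 10 (ERF2) and in 12.2%. GCCGCC was present in 2 of 10 (ORA59 and ERF11) and in 1.87% of all windows, while AGCCGCC, the 7-letter GCC box that contains it, was in 0 of 10 and in 0.587%. ACCGAC was present in 1 of 10 (ERF5) and in 4.7%, and CGCG in 1 of 10 (ORA59) and in 10.1%. Of the 250 bases of the ERF5 window, which also holds TTGACT, 156 lie in other gene models. ERF1A and ERF2 share an identical run of 26 bases, on chromosomes 4 and 5, whose last base lies 63 and 16 bases before their starts and holds their CACGTG in capitals.
ERF1A and ERF2 shared run: cgCACGTGtttaattcacgaaccttc
The next longest run shared by a pair of the 10 windows was 12 bases. All 10 genes have a single exon in the annotation, and at most 0.19% of the 31-base words in any of them occur elsewhere in the genome. ERF6 and ERF1A are neighbours on chromosome 4 with 5041 bases between them. ERF104 lies 832 bases from ERF107 on chromosome 5, and ERF11 lies 2668 bases from ERF12 on chromosome 1. ERF105 lies whole within exons of AT5G51180, which runs on the other strand. All 965 bases of ERF105 fall in exons of that model outside its coding sequence. The protocol names no strand marking, so reads of both genes could not be told apart over these bases. This holds for every ERF105 value below, and values of AT5G51180 are given where ERF105 was called.

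The A. thaliana, hybrid and silique libraries held between 8931520 and 16149496 gene reads, and the A. arenosa libraries 1777781 and 2089616. Levels below are in CPM, the usual depth-scaled read count, normalised by the trimmed mean of M-values over all 14 libraries. A count of 3 reads corresponded to 0.182 to 0.376 CPM in the deeper libraries, and to 1.41 and 1.39 CPM in the A. arenosa libraries. Reads of C24 and A. arenosa were counted on the Col-0 reference, and the effect of sequence divergence on these genes was not tested. Reads fell on 31430 loci in Col control replicate 1 against 23123 in replicate 2, on 28243 against 23105 in the C24 controls and on 26084 against 22555 in C24 hybrid seeds. For the controls, counts of calls are also given without both control replicates 1. Nothing in the labels ties replicates to separate plants or pools of fruits, so the spread behind each p-value is that between these libraries and may be technical.

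On the length-corrected scale (reads per kilobase of exon, scaled like CPM), ERF4 had the highest mean level of the 10 genes in all 7 groups, between 21.7 in Col control seeds and 67.0 in C24 hybrid siliques. ERF105 was next in both hybrid seed groups and both silique groups, with 7.75 in C24 hybrid seeds, 8.73 in Col hybrid siliques, 13.6 in Col hybrid seeds and 16.6 in C24 hybrid siliques. ERF11 was next to ERF4 in both A. thaliana controls (6.43 in Col, 3.56 in C24), and ERF1A was next to it in A. arenosa seeds (7.69). ERF1 and ORA59 were the lowest or among the lowest throughout, with at most 0.544 in any group. ERF1 was at 0 to 2 reads in 13 libraries and at 10 reads in Col control replicate 1. ORA59 was at 0 to 4 reads in 13 libraries and at 18 reads in that same replicate. Both failed the filter on low counts in every fit, so 8 of the 10 genes were tested, and a difference in ERF1 or ORA59 was not detectable at this depth.

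**Figure D1:**
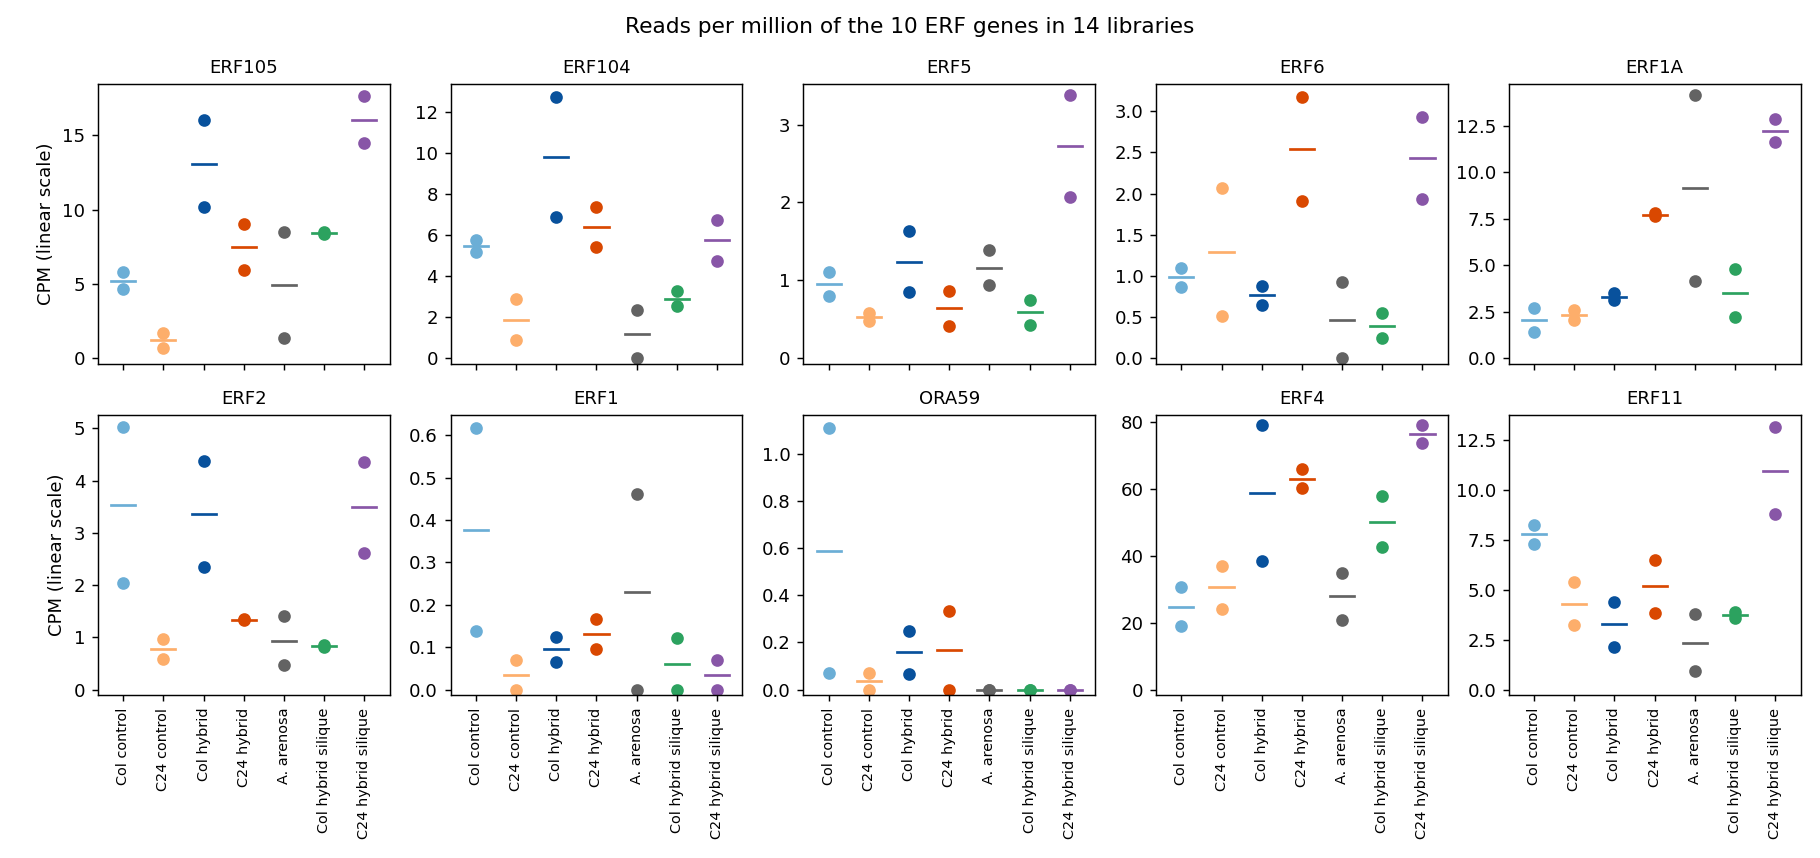
CPM (y axis, linear) of the 10 ERF genes in the 7 groups (x axis); points are libraries and lines are means of 2. ERF105 and ERF4 are higher in hybrid seeds than in the controls of the same mother, and C24 hybrid siliques are the highest group for ERF105, ERF5, ERF1A, ERF4 and ERF11.

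The first comparison asked how the incompatible hybrid seeds differ from seeds of the same mother pollinated within the species. ERF105 and ERF4 were called higher in Col hybrid seeds than in Col control seeds, and no ERF was called lower. ERF105, which is known for its part in cold tolerance, was at 4.63 and 5.79 CPM in the controls and at 10.2 and 16.0 CPM in the hybrids. Both hybrid libraries were above both controls. Its log2 fold change was 1.35 ± 0.37 (SE, 2 against 2 libraries, edgeR adjusted p = 0.0401). AT5G51180, the gene that overlaps it, was at 8.09 and 8.82 CPM in the controls and at 10.8 and 11.02 CPM in the hybrids, a log2 fold change of 0.40 ± 0.18 that was not called (edgeR adjusted p = 0.16).

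ERF4, the repressor, was at 19.0 and 30.6 CPM in Col control seeds and at 38.3 and 79.0 CPM in Col hybrid seeds. The groups did not overlap, although the hybrid replicates lay further apart than the lower hybrid library and the higher control. The log2 fold change was 1.28 ± 0.36 (SE, edgeR adjusted p = 0.0444). These were 2 of 8 genes tested, where 10.4% of all 20552 genes tested were called higher and 1311 genes were called lower. The median log2 fold change of the 8 genes was 0.56 and that of all genes was -0.01. Both calls were lost without both control replicates 1 (0 of 8 called), without Col control replicate 1 alone (0 of 8), and without Col hybrid replicate 2.

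ERF11, the other repressor, had the lowest estimate in this comparison. It was at 8.22 and 7.30 CPM in Col control seeds and at 2.15 and 4.38 CPM in Col hybrid seeds, without overlap. Its log2 fold change of -1.27 ± 0.44 (SE) did not pass the threshold (edgeR adjusted p = 0.0839). ERF104 was at 5.19 and 5.79 CPM in the controls and at 6.91 and 12.8 CPM in the hybrids, and ERF1A at 1.42 and 2.69 against 3.13 and 3.51 CPM. Neither was called, with log2 fold changes of 0.85 ± 0.47 and 0.73 ± 0.35. ERF5, ERF6 and ERF2 had log2 fold changes of 0.40 ± 0.82, -0.34 ± 0.82 and -0.03 ± 0.56, with 95% intervals that reach more than 1 unit to either side of 0.

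The compatible cross was compared in the same way with C24 control seeds. Here 4 of the 8 genes tested were called higher, ERF105, ERF104, ERF1A and ERF4, and none was called lower. Of all 20552 genes tested, 16.8% were called higher and 3093 genes were called lower. The median log2 fold change of the 8 genes was 1.04, that of all genes was 0.00, and all 8 estimates were above 0. The count was also 4 without both control replicates 1, and it was 2 without C24 control replicate 2, where ERF104 and ERF4 were lost.

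ERF105 was at 1.73 and 0.730 CPM in C24 control seeds and at 5.91 and 9.04 CPM in C24 hybrid seeds. The lower hybrid library was above the higher control by more than the distance between the controls. The log2 fold change was 2.62 ± 0.43 (SE, edgeR adjusted p = 0.00284), and the call was kept in 12 of 12 alternatives. AT5G51180 was at 6.97 and 6.86 CPM in these controls and at 8.91 and 7.60 CPM in the hybrids, with a log2 fold change of 0.31 ± 0.18 (edgeR adjusted p = 0.231).

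ERF104, a substrate of MPK6 in the response to bacterial flagellin, was at 2.90 and 0.876 CPM in C24 control seeds and at 5.41 and 7.41 CPM in C24 hybrid seeds. The hybrid libraries lay above the controls, which differed more between themselves than the hybrids did on the log scale. Its log2 fold change was 1.78 ± 0.52 (SE, edgeR adjusted p = 0.0300). ERF1A, an activator of GCC-box genes, was at 2.62 and 2.05 CPM in the controls and at 7.66 and 7.79 CPM in the hybrids. Replicates of ERF1A were close in both groups. Its log2 fold change was 1.77 ± 0.35 (SE, edgeR adjusted p = 0.00612), and it was called in 12 of 12 alternatives.

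ERF4 was at 37.1 and 24.02 CPM in C24 control seeds and at 60.1 and 66.0 CPM in C24 hybrid seeds, again without overlap. The log2 fold change of 1.09 ± 0.36 (SE) was just past the threshold (edgeR adjusted p = 0.0473), and it was called in 6 of 12 alternatives. It was lost without C24 control replicate 2 or without either hybrid library. ERF11 was at 5.38 and 3.21 CPM in the controls and at 6.50 and 3.85 CPM in the hybrids, which overlapped. ERF6, a substrate of MPK3 and MPK6, was at 2.07 and 0.511 CPM in the controls and at 1.92 and 3.18 CPM in the hybrids. ERF2 was at 0.966 and 0.584 CPM against 1.33 and 1.35 CPM, and ERF5 at 0.483 and 0.584 against 0.416 and 0.866 CPM. None of these 4 was called.

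**Figure D2:**
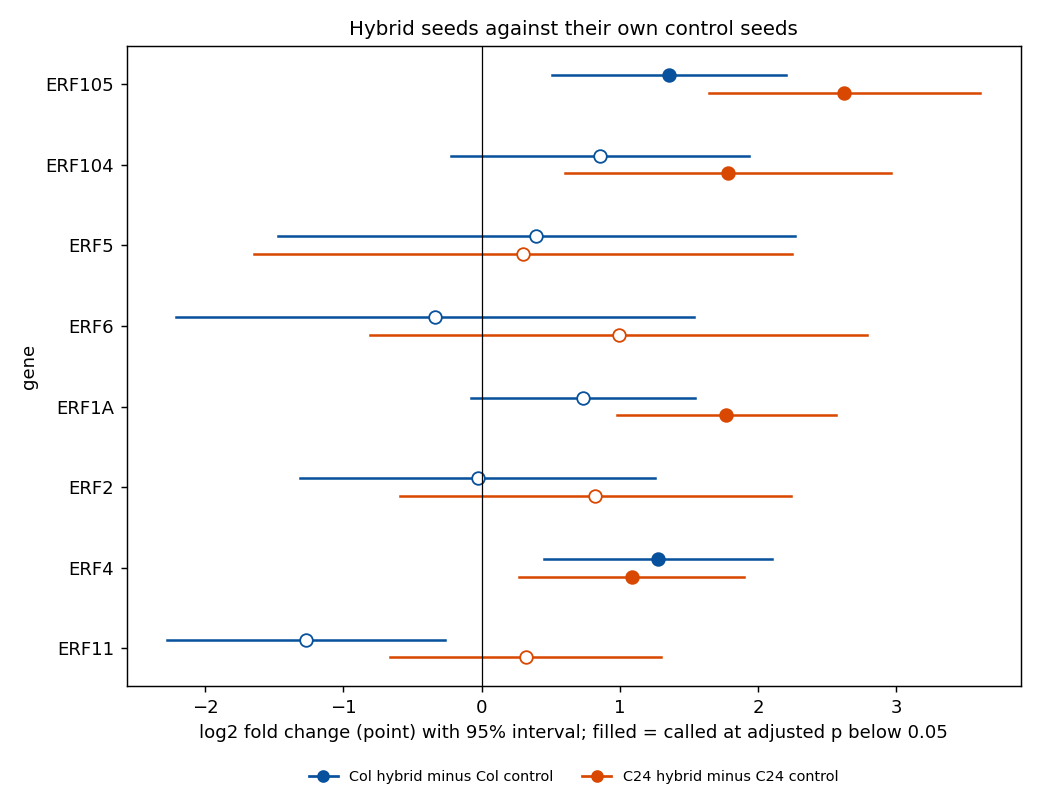
Log2 fold change of hybrid against control seeds (x axis, points) with 95% intervals (lines) for the 8 ERF genes tested (y axis), blue for the Col mother and orange for the C24 mother. Filled points, called at an adjusted p below 0.05, are ERF105 and ERF4 for both mothers and ERF104 and ERF1A for C24; ERF11 is at -1.27 for Col and 0.32 for C24.

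Whether the hybrid effect differs between the mothers was tested as the Col effect minus the C24 effect. No ERF was called by edgeR, against 1.39% of all genes, and DESeq2 also called 0. At an unadjusted p below 0.05 there was 1 gene, ERF11, with a difference of -1.59 ± 0.61 (95% interval -2.99 to -0.18, edgeR adjusted p = 0.26). For ERF105 the difference was -1.27 (interval -2.56 to 0.02) and for ERF1A it was -1.03 (interval -2.16 to 0.09). For ERF4 the difference was 0.19 (interval -0.95 to 1.33). The Col and C24 hybrid seeds were also compared directly, and again 0 of 8 ERFs were called where 9.78% of all genes were called in either direction. ERF1A was nearest to the threshold, with 3.13 and 3.51 CPM in Col and 7.66 and 7.79 CPM in C24 hybrid seeds. Its log2 difference of -1.25 ± 0.34 had an edgeR adjusted p of 0.0566. This comparison gave 1 unadjusted p below 0.05 among the 8 genes, and 0 calls by DESeq2.

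The controls of both mothers differed in ERF105 and ERF2. ERF105 was higher in Col than in C24 control seeds by 2.05 ± 0.43 log2 units (edgeR adjusted p = 0.0145), a call kept in 12 of 12 alternatives. AT5G51180 differed there by 0.28 ± 0.18 and was not called (edgeR adjusted p = 0.319). ERF2, an activator of jasmonate-responsive defensins, was at 2.04 and 5.03 CPM in Col and at 0.966 and 0.584 CPM in C24 control seeds. The log2 difference was 2.13 ± 0.61 (edgeR adjusted p = 0.0458), and the call was lost without Col control replicate 2 or C24 control replicate 2. These were 2 of 8 called higher in Col, where 7.85% of all genes were. ERF104 was higher in both Col controls than in both C24 controls but was not called (1.502 ± 0.51, edgeR adjusted p = 0.0792). Each control group enters the hybrid comparison of its own mother too, so these values are not independent of the fold changes given above.

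Levels of markers for seed parts and the fruit wall are given for the same contrasts. The summed level of 7 seed coat markers was 3407 to 5820 CPM in the 4 control libraries and 1670 to 2241 CPM in the 4 hybrid seed libraries, with no marker at 0 in any of them. BAN and STK were called lower in both crosses and the other 5 were not called, and the list's median log2 fold change was -0.02 in Col and -0.23 in C24. The summed level of 5 embryo markers was 7.72 to 39.0 CPM in the controls and 2.35 to 5.16 CPM in the hybrids. Only 3 of these 5 were tested, and in each cross 1 was called lower and 0 higher. Of 8 endosperm markers, 2 were called higher and 3 lower in the Col comparison, and 4 higher and 2 lower in the C24 comparison. Summed fruit wall markers were at 486 to 619 CPM in all 8 seed libraries. Of the 7 tested, FIL was called higher in C24 hybrid seeds (3.25 ± 0.91, edgeR adjusted p = 0.0262), with 4 and 2 reads in the controls and 28 and 18 in the hybrids, and none was called in Col. Their part in the ERF differences was not tested, and in these bulk samples fewer cells of a type and less RNA per cell cannot be told apart.

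Ethylene is made from S-adenosylmethionine by ACC synthases (ACS) and ACC oxidases (ACO). None of the 7 tested genes of 11 in this list was called in Col hybrid seeds. In C24 hybrid seeds ACS6, a stress-induced synthase that MPK6 stabilises, was higher by 1.67 ± 0.37 log2 units (edgeR adjusted p = 0.00967). It was at 63.1 and 30.5 CPM in the controls and at 116 and 176 CPM in the hybrids. The oxidase ACO1 was lower there, by -1.78 ± 0.41. The list's median log2 fold change was 0.03 in C24 and -0.46 in Col.

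All 13 genes of perception and signalling were tested. Among all 20552 genes tested, 2143 were called higher and 1311 lower in Col, and 3443 higher and 3093 lower in C24. EIN2, the membrane protein that carries the signal to the nucleus, was called higher in both hybrids, by 0.54 ± 0.15 in Col and 0.55 ± 0.15 in C24. Also called in Col was the receptor ETR1 (0.52 ± 0.14), which made 2 higher and 0 lower. In C24 there were 3 higher and 2 lower. The receptor ETR2 (1.00 ± 0.19) and the exonuclease XRN4 (0.71 ± 0.14) were higher, and the receptors EIN4 (-0.87 ± 0.22) and ERS1 (-0.65 ± 0.12) were lower.

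Of 15 other group VIII and IX ERFs, 10 were tested. ERF9, a repressor with an EAR motif, was called higher in both hybrids, by 1.03 ± 0.24 in Col and 1.203 ± 0.24 in C24. It was the only call of this list in Col. In C24, 3 were higher and 1 was lower, with ERF10 at 1.00 ± 0.31 and ERF106 at -0.81 ± 0.20. ERF107, the neighbour of ERF104, was the other gene called higher in C24, at 0.92 ± 0.21. Of 8 defence genes downstream of ethylene and jasmonate, 2 were tested and none was called in either hybrid. The defensins PDF1.2a and PDF1.2b, whose upstream windows hold GCCGCC, had at most 2 reads in any library. Among 25 genes of rapid stress responses, 24 were tested. In C24, 3 were higher and 0 lower, led by WRKY33 (1.85 ± 0.50) and the mitochondrial carrier gene DIC2 (1.49 ± 0.50). In Col, 0 were higher and 1 was lower, WRKY33 (-1.77 ± 0.45).

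**Figure D3:**
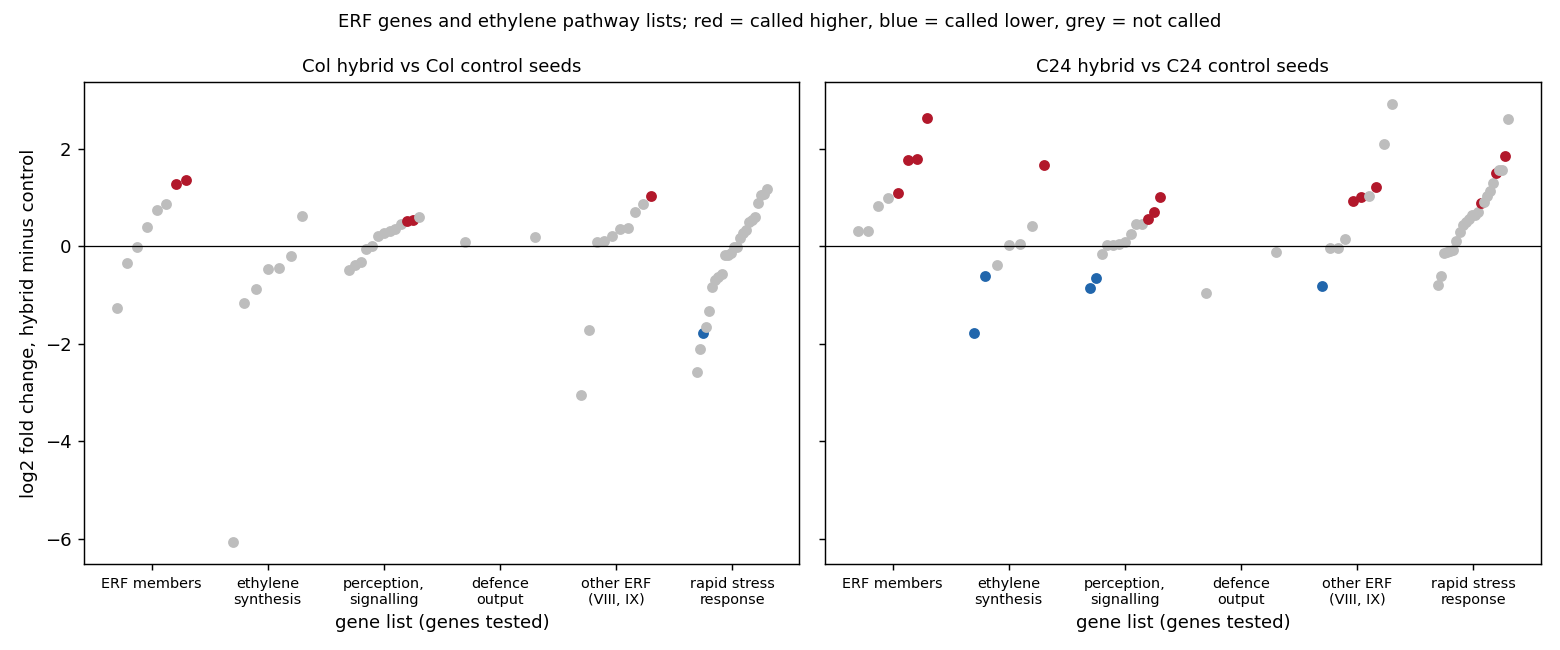
Log2 fold change of hybrid against control seeds (y axis) for each tested gene of the ERF members and 5 lists (x axis), left for Col and right for C24; red points were called higher, blue lower and grey not called. In Col 2 ERF members, 2 signalling genes and ERF9 are red and WRKY33 is blue. In C24 4 ERF members, 1 synthesis gene, 3 signalling genes, 3 other ERFs and 3 rapid stress genes are red. Blue in C24 are 2 synthesis genes, 2 signalling genes and 1 other ERF.

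Whole siliques were then compared with seeds of the same hybrid cross. In the Col cross, ERF104 and ERF2 were called lower in siliques and no ERF was called higher, while 23.4% of all 20700 genes tested were called lower. ERF104 was at 6.91 and 12.8 CPM in Col hybrid seeds and at 3.29 and 2.54 CPM in siliques. The groups did not overlap, and the log2 fold change was -1.69 ± 0.38 (SE, edgeR adjusted p = 0.00477), called in 11 of 11 alternatives. ERF2 was at 2.35 and 4.38 CPM in seeds and at 0.824 and 0.848 CPM in siliques. Its log2 fold change was -1.92 ± 0.49 (SE, edgeR adjusted p = 0.00906), and this call was lost without Col hybrid replicate 2.

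In the C24 cross, 4 ERFs were called higher in siliques (ERF105, ERF5, ERF2 and ERF11) and none lower, where 31.9% of all genes were called higher. ERF105 was at 5.91 and 9.04 CPM in seeds and at 14.5 and 17.6 CPM in siliques (log2 fold change 1.11 ± 0.28, edgeR adjusted p = 0.00808). AT5G51180 rose there as well, by 0.66 ± 0.24 (edgeR adjusted p = 0.0379). ERF5, an activator that restrains leaf growth under osmotic stress, was at 0.416 and 0.866 CPM in seeds and at 2.07 and 3.38 CPM in siliques (2.09 ± 0.61, edgeR adjusted p = 0.0147). These values rest on 5 and 9 reads in seeds and 30 and 45 in siliques.

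ERF2 was at 1.33 and 1.35 CPM in C24 hybrid seeds and at 2.62 and 4.35 CPM in siliques (1.37 ± 0.47, edgeR adjusted p = 0.0315). ERF11 was at 6.50 and 3.85 CPM in seeds and at 8.76 and 13.1 CPM in siliques (1.06 ± 0.41, edgeR adjusted p = 0.0470). All 4 genes were higher in both silique libraries than in both seed libraries, and the share of all genes separated in this way is not given here. The count of calls fell to 1 without C24 hybrid replicate 1 or without C24 hybrid silique replicate 2, and to 2 without C24 hybrid replicate 2.

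Siliques of both crosses belong to the same set of records, so they share protocol and father plants by the labels. All 8 tested ERFs had lower estimates in Col than in C24 hybrid siliques. The median log2 difference was -1.67, against 0.00 for all genes. Called lower were 3 of 8, ERF6, ERF1A and ERF2, where 1.82% of all genes were called lower, and 7 of 8 had an unadjusted p below 0.05. ERF6 was at 0.549 and 0.242 CPM in Col and at 1.93 and 2.93 CPM in C24 siliques, from 8, 4, 28 and 39 reads. Its log2 difference was -2.61 ± 0.58 (edgeR adjusted p = 0.0346). ERF1A was at 4.80 and 2.24 CPM in Col and at 12.8 and 11.6 CPM in C24 siliques, a difference of -1.80 ± 0.36 (edgeR adjusted p = 0.0208). ERF2 differed by -2.05 ± 0.48 (edgeR adjusted p = 0.0463).

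The genes not called in siliques were in the same order. ERF11 was at 3.57 and 3.88 CPM in Col against 8.76 and 13.1 CPM in C24 siliques (-1.55 ± 0.41, edgeR adjusted p = 0.0758), and ERF5 at 0.755 and 0.424 against 2.07 and 3.38 CPM (-2.20 ± 0.59, edgeR adjusted p = 0.0788). For ERF105 the values were 8.37 and 8.48 against 14.5 and 17.6 CPM, and for ERF4 they were 57.9 and 42.5 against 73.8 and 79.1 CPM. No library of Col siliques reached the lower C24 silique library in any of the 8 genes. The shares of all genes separated in this way, or with an unadjusted p below 0.05, are not given here. These counts are therefore descriptions of the 8 genes only. With a single silique library left out, 0 or 1 of the 8 were called, and with the groups fitted alone or with all 7 groups 0 were called.

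Whether the silique-to-seed difference itself differs between the crosses was tested after these values were seen. All 8 estimates were below 0 (median -1.18, all genes 0.01), but edgeR called none, where 0.29% of all genes were called. There were 4 with an unadjusted p below 0.05, a count given without its share over all genes, and DESeq2 called 1. The largest were ERF2 at -3.29 ± 0.68 (edgeR adjusted p = 0.104) and ERF5 at -3.06 ± 0.87 (edgeR adjusted p = 0.236).

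**Figure D4:**
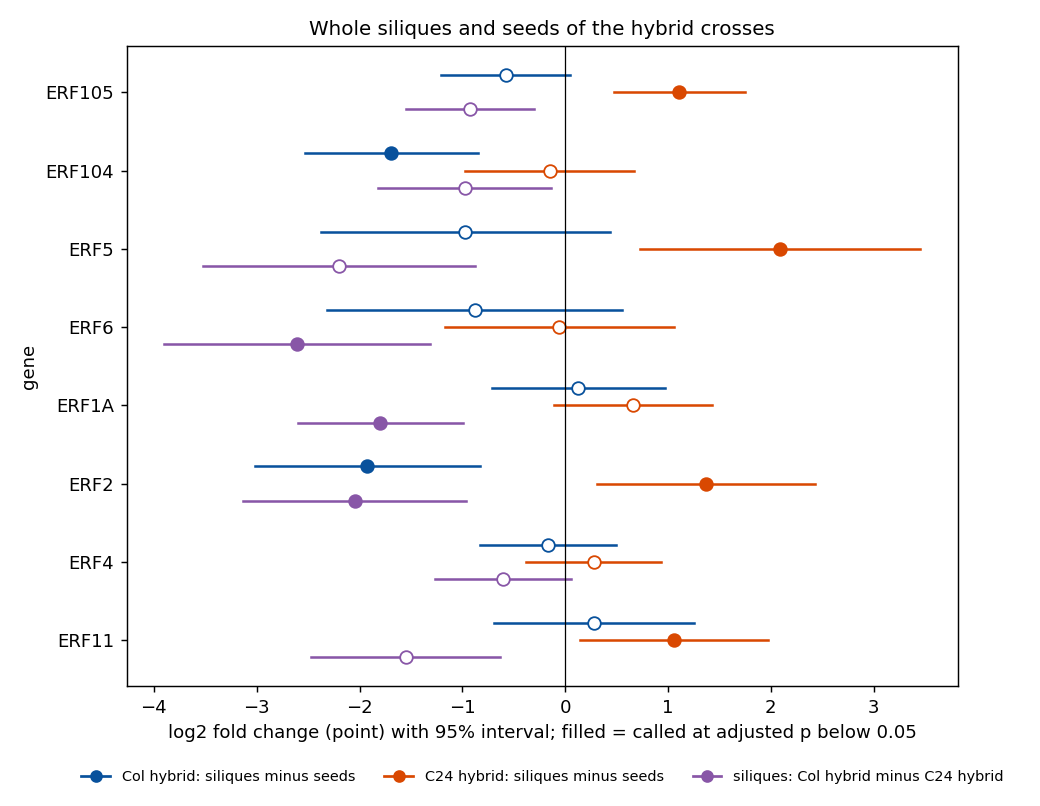
Log2 differences (x axis, points) with 95% intervals (lines) for the 8 ERF genes tested (y axis): siliques minus seeds in the Col cross (blue) and the C24 cross (orange), and Col minus C24 siliques (purple); filled points were called. All 8 purple points are below 0, and those of ERF6, ERF1A and ERF2 are filled.

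Of 8 fruit wall markers, 5 were called higher and 2 lower in siliques of each cross. FUL was higher by 6.40 log2 units in Col and 6.74 in C24, YAB3 by 6.10 and 5.44, and IND by 4.98 and 4.55. FIL and ALC were also called higher in both. SHP1 (-1.172 and -0.885) and SHP2 (-1.025 and -1.278) were called lower. The summed level of the list does not show these rises, at 430 to 507 CPM in siliques and 525 to 619 CPM in hybrid seeds. Seed coat markers were lower in siliques (5 of 7 called in each cross), with sums of 733 to 1033 CPM against 1670 to 2241 CPM. Endosperm markers were lower too, with 5 of 7 tested called in Col and 6 of 7 in C24, and sums of 11.9 to 27.9 CPM in siliques against 165 to 388 CPM in hybrid seeds. Summed pollen markers were 31.6 to 113 CPM in siliques and 12.6 to 21.6 CPM in hybrid seeds. Between Col and C24 siliques, none of the 8 fruit wall markers, none of the 3 pollen markers and 1 of the 7 seed coat markers was called. Their part in the ERF differences was not tested.

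Of the 20700 genes tested, 6162 were called higher and 4852 lower in Col siliques, and 6604 higher and 5560 lower in C24 siliques, and the ethylene lists are given beside these counts. The ACC oxidase ACO4 was higher in siliques of both crosses, by 5.59 ± 0.46 in Col and 4.81 ± 0.47 in C24. The synthase ACS8 was lower in both, by -2.09 ± 0.28 and -2.54 ± 0.28. ACS7 was also called lower in both, with 7 to 49 reads in the hybrid seed libraries and 0 to 3 in siliques. This made 2 higher and 3 lower of 7 tested in each cross.

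Among signalling genes, EIL1, the close relative of EIN3, was higher by 1.54 ± 0.30 in Col and 1.71 ± 0.31 in C24. EBF2, the F-box protein that removes EIN3, was lower by -1.55 ± 0.18 and -1.56 ± 0.18. Of the 13 genes, 6 were not called in Col, 2 were higher and 5 lower, with EIN4 at 0.88 ± 0.28 and ETR2 at -0.91 ± 0.24. In C24, 10 were not called, 1 was higher and 2 were lower, the second being EBF1 at -0.77 ± 0.20. EIN2, EIN3 and CTR1 were called in neither cross.

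In each cross, 3 of 9 tested other ERFs were higher in siliques and 5 were lower. ERF13 rose by 2.78 ± 0.58 in Col and 3.23 ± 0.50 in C24, and ERF8 by 2.16 ± 0.28 and 3.00 ± 0.30. ERF107, next to ERF104, fell by 2.64 ± 0.34 in Col and by 2.29 ± 0.34 in C24, whereas the C24 value of ERF104 was -0.15 ± 0.37. ERF12, next to ERF11, was higher by 1.56 ± 0.43 in Col and 2.20 ± 0.45 in C24. ERF9 and ERF10 were also called lower in siliques of both crosses. ERF9 was at -1.94 ± 0.29 in Col and -0.85 ± 0.27 in C24, and ERF10 at -1.39 ± 0.47 and -2.04 ± 0.46.

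Of the defence genes, 3 were tested. The basic chitinase CHI-B had 0 or 1 read in each hybrid seed library and 88 to 182 reads in each silique library, and was called higher in both crosses. PR4 was lower by -1.67 ± 0.57 in Col and -2.03 ± 0.57 in C24. The thionin THI2.1 was called higher in C24 siliques (1.71 ± 0.30) and not in Col siliques (-0.17 ± 0.29), and the difference between the crosses was not called (-1.88 ± 0.42, edgeR adjusted p = 0.127). Among 22 tested genes of rapid stress responses, 1 was higher and 5 lower in Col siliques, and 10 were higher and 2 lower in C24 siliques. JAZ10 was higher in both crosses (1.76 ± 0.59 and 3.01 ± 0.60), and CML38 in C24 (2.59 ± 0.60). MPK6 and SZF2 were lower in both, MPK6 by -1.64 ± 0.17 and -1.21 ± 0.17, and SZF2 by -1.38 ± 0.24 and -0.78 ± 0.24. Of these 22 genes, 6 were called lower in Col than in C24 siliques and 0 higher, where 1.82% of all genes were called lower. How these 6 calls depend on single libraries is not given here. Of the other 4 lists, the only gene called between the siliques was the synthase ACS2, named after its values were seen, with 33 and 63 reads in Col and 1 and 0 in C24 siliques.

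The A. arenosa control seeds are described with several limits. They belong to the record set of the siliques, so species and record set cannot be told apart when they are compared with the other seeds. They were shallower than the other libraries, their reads were counted on the genome of another species, and the summed pollen markers stood at 879 and 6564 CPM in them against 4.24 to 21.6 CPM in the other seed libraries. Of 8 endosperm markers, 6 had no read in each A. arenosa library. The part of these differences in the ERF values was not tested. Replicate 1 was above replicate 2 for 6 of the 8 tested ERFs, with 8.47 against 1.39 CPM for ERF105 and 34.8 against 20.8 CPM for ERF4.

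ERF1A was called higher in A. arenosa seeds (14.1 and 4.16 CPM) than in Col control seeds, by 2.14 ± 0.55 (edgeR adjusted p = 0.00924), and than in C24 control seeds, by 1.94 ± 0.54 (edgeR adjusted p = 0.0132). ERF105 was called higher than in C24 control seeds (1.96 ± 0.71, edgeR adjusted p = 0.0412), where AT5G51180 was higher as well (1.03 ± 0.28, edgeR adjusted p = 0.0105). ERF105 had 18 and 3 reads in A. arenosa seeds. ERF11, at 3.77 and 0.925 CPM from 8 and 2 reads, was called lower than in Col control seeds (-1.74 ± 0.63, edgeR adjusted p = 0.0440). Against Col, 20.1% of all 21619 genes tested were called higher and 28.9% lower, and against C24 22.4% were called higher. The call of ERF1A was lost against either control without A. arenosa replicate 1 and against C24 without C24 control replicate 2, and that of ERF11 against Col without A. arenosa replicate 2 or without either Col control. The call of ERF105 was lost without A. arenosa replicate 1 and without C24 control replicate 2.

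Both hybrids were higher than A. arenosa seeds in ERF104 and ERF4. ERF104 had 5 and 0 reads in A. arenosa, and the fitted log2 differences were 3.08 ± 0.89 for Col hybrid seeds (edgeR adjusted p = 0.0167) and 2.48 ± 0.91 for C24 hybrid seeds (edgeR adjusted p = 0.0440). ERF4, at 34.8 and 20.8 CPM in A. arenosa, differed by 1.10 ± 0.41 (edgeR adjusted p = 0.04997) and 1.22 ± 0.41 (edgeR adjusted p = 0.0328). ERF1A was lower in Col hybrid than in A. arenosa seeds by -1.43 ± 0.54 (edgeR adjusted p = 0.0485), and in C24 hybrid seeds the difference was -0.21 ± 0.52. Of all genes, 29.2% were called higher and 20.5% lower in Col hybrid than in A. arenosa seeds, and 29.4% higher in C24 hybrid seeds. The median of all genes was 0.22 and 0.19 in these comparisons, which share the A. arenosa libraries. No ERF was called in the comparison of Col hybrid with A. arenosa seeds without Col hybrid replicate 2, or in that of C24 hybrid seeds without either C24 hybrid replicate. Without A. arenosa replicate 2, ERF104 and ERF4 lost their calls in both, and ERF1A lost its call without A. arenosa replicate 1 or without either Col hybrid replicate.

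The order of the groups differed between members. For ERF4, C24 hybrid siliques (76.5 ± 3.75 CPM, SD, n = 2), C24 hybrid seeds (63.1 ± 4.16), Col hybrid seeds (58.7 ± 28.8) and Col hybrid siliques (50.2 ± 10.9) were above C24 control (30.5 ± 9.21), A. arenosa (27.8 ± 9.91) and Col control seeds (24.8 ± 8.22). Neighbours within the upper 4 and within the lower 3 lay within the spread of at least 1 of them, except the first 2. ERF105 was highest in C24 hybrid siliques (16.1 ± 2.23) and Col hybrid seeds (13.1 ± 4.14), then in Col hybrid siliques (8.43 ± 0.0744), C24 hybrid seeds (7.48 ± 2.21), Col control (5.21 ± 0.816) and A. arenosa seeds (4.93 ± 5.01), and lowest in C24 control seeds (1.23 ± 0.703). In that order Col hybrid seeds and Col hybrid siliques, and C24 hybrid and Col control seeds, lay further apart than the SD of either group, and the other neighbours did not. Across the 14 libraries, the 8 tested ERFs correlated with each other at Pearson's r of 0.09 (ERF105 and ERF6) to 0.76 (ERF104 and ERF2) on log2 CPM. The libraries share groups and scaling, so these are descriptions with no p.

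The mean standardised log2 CPM of the 8 ERFs was compared with 15375 other genes of at least 5 CPM. The 5 most similar were AT1G23710 (r = 0.92), STZ, also named ZAT10 (AT1G27730, r = 0.91), PUB26 (AT1G49780, r = 0.88), SZF1 (AT3G55980, r = 0.86) and WRKY46 (AT2G46400, r = 0.84), over 14 libraries that share groups and scaling. ZAT10, a zinc-finger repressor, SZF1, a CCCH zinc-finger protein, and WRKY46 were also in the list of rapid stress responses. That list was chosen with earlier results of these data known, so the overlap is a description only. ZAT10 was at 8.53 and 13.4 CPM in the Col controls and at 13.4 and 26.7 CPM in Col hybrid seeds. With the C24 mother it was at 12.8 and 3.72 CPM in the controls and at 23.2 and 25.1 CPM in hybrid seeds. It was at 29.3 and 27.8 CPM in C24 hybrid siliques and at 17.7 and 6.96 CPM in Col hybrid siliques.

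**Figure D5:**
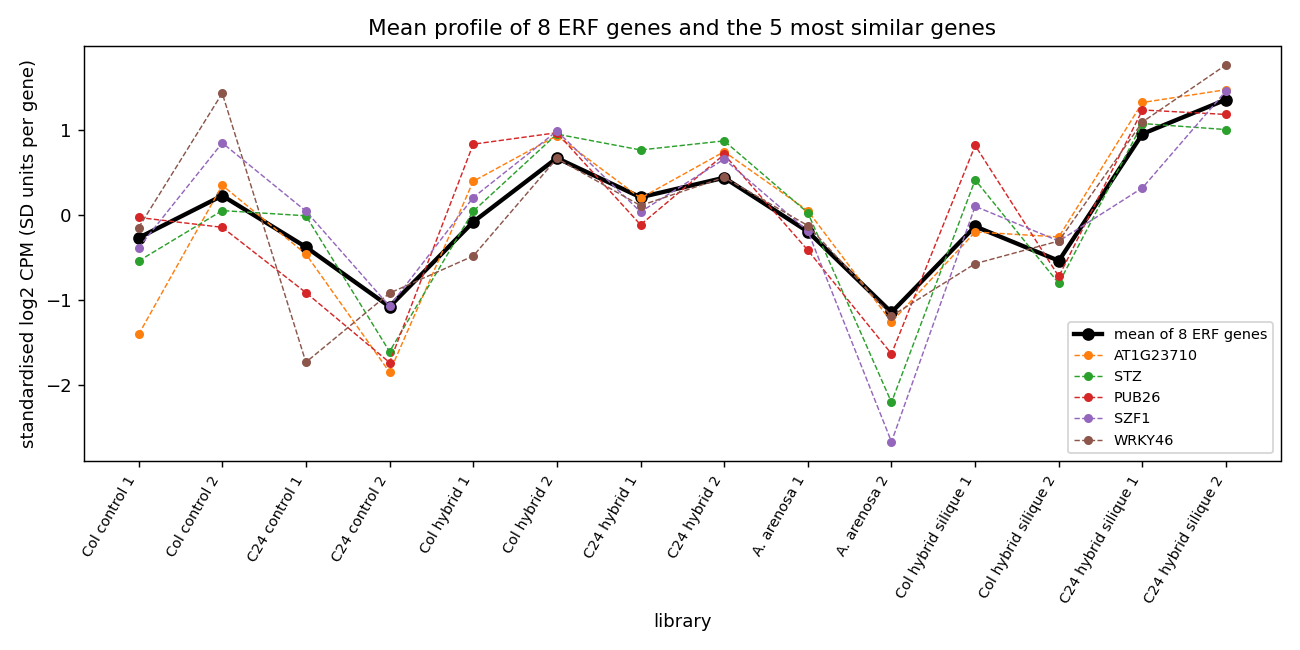
Standardised log2 CPM (y axis, SD units of each gene) in the 14 libraries (x axis): the black line is the mean of 8 ERF genes and the dashed lines are the 5 genes most similar to it. Both C24 hybrid siliques are above 0 and A. arenosa replicate 2 is below 0 in all 6 lines.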

How the data were processed

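The deposited table held whole-number read counts per gene locus, made by the authors and not normalised. BWA and TAIR10 are named per the submitters' processing notes; the rule and strand setting of the counting are not given in the sources used here. Poly-A RNA was primed at random, per the labels' protocols. The 14 columns cover 18 records, because each of the 4 A. thaliana control columns sums 2 records. Genes low in all groups were removed with filterByExpr, libraries were scaled by the trimmed mean of M-values, and differences were tested with edgeR 4.0.16 (quasi-likelihood F test, Benjamini-Hochberg adjustment over all genes tested, threshold 0.05) in R 4.3.3 with limma 3.58.1. Standard errors and 95% intervals were derived from the F statistic. CPM levels use 1 scaling over all 14 libraries, and fold changes come from each comparison's own fit, over the 4 seed groups with A. thaliana mothers, these with A. arenosa, or the 4 hybrid groups. DESeq2 1.42.0 was an alternative. The scripts were tested on simulated data. The members and gene lists were chosen with earlier results of these data known. From each pathway list, up to 2 genes called higher and 2 called lower with the largest changes are named, plus genome neighbours of members. A gene named in 1 cross is not always given in the other. Genome positions come from TAIR10.1, since the table holds none. Replicate counts differed by more than sampling noise in every group. A withheld list gene and an upstream sequence are not reported here.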

Additional observations from a re-analysis of the deposited data

Results flagged for a closer look

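WRKY33, a transcription factor of the pathogen response, was the only gene of the ERFs and the 5 pathway lists whose hybrid effect differed between the mothers by the test of the difference itself. The Col effect minus the C24 effect was -3.62 ± 0.67 log2 units (edgeR quasi-likelihood test, adjusted p = 0.0435). Of all 20552 genes tested, 1.39% were called in either direction, so 1 call among these lists is a description only. WRKY33 was at 4.45 and 11.1 CPM in Col control seeds and at 2.22 and 2.13 CPM in Col hybrid seeds. It was at 0.690 and 0.584 CPM in C24 control seeds and at 1.92 and 2.60 CPM in C24 hybrid seeds. The hybrid libraries of both mothers lay close together, and the controls lay on either side of them.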

How the results depend on the processing

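Across 13 comparisons, 0 of the single-gene values reversed, 1097 kept their side of the threshold, 103 lost it and 27 gained it. These totals include genes not called in the main fit. Such genes could not lose a call, so the totals do not give the share of calls lost. For Col hybrid against Col control seeds (2 ERFs called), 1 was called with RLE scaling, DESeq2 or only the groups compared, 0 with upper quartile scaling, all 7 groups or both control replicates 1 left out (chosen after seeing the data), and 4 without the filter. Leaving out 1 library gave 0 to 2. For C24 (4 called) it was 2 with all 7 groups and 2 to 4 with 1 library left out. The interaction stayed at 0 in every alternative run. Col against C24 hybrid seeds (0) gave 1 without the filter or with only these groups, and 0 to 0 with 1 library left out. Col against C24 controls (2) gave 1 with only these groups or all 7, and 1 to 3. For A. arenosa against Col (2), RLE, upper quartile, DESeq2 or both control replicates 1 left out gave 1, only these groups 0, and 1 library left out 1 to 2; against C24 (2), only these groups gave 0 and 1 library left out 0 to 2. For Col hybrid against A. arenosa (3), only these groups gave 1, and 1 library left out 0 to 3; for C24 hybrid (2), RLE and upper quartile gave 0, only these groups 1, and 1 library left out 0 to 4. Col siliques against seeds (2) gave 1 to 2 with 1 library left out, and C24 (4) gave 2 with DESeq2, 1 with all 7 groups and 1 to 4. Col against C24 siliques (3) gave 6 without the filter, 0 with only these groups or all 7, and 0 to 1 with 1 library left out. The added difference of differences (0) gave 3 without the filter, 1 with DESeq2 and 0 to 0. The cause of these changes was not tested. Upper quartile scaling moved the median of all genes in Col hybrid against control seeds from -0.01 to -0.16.

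Nothing in the labels pairs the replicate numbers. Of 21 pairs of groups, 3 deviated together at a correlation over 0.1 (range -0.36 to 0.65), and these 3 join the same seed groups: Col control with C24 control (0.65), Col control with C24 hybrid (0.37) and C24 control with C24 hybrid (0.33). The block left the C24 hybrid comparison at 4 calls. With the replicate block, 1 ERF was called for A. arenosa against C24, 1 for Col hybrid and 1 for C24 hybrid against A. arenosa, 3 for C24 siliques against seeds and 1 between siliques; the other 8 comparisons kept their counts of calls. Depth limits ERF1 and ORA59 in all libraries and ERF104, ERF5, ERF6 and ERF2 in A. arenosa, with 0 to 5 reads each. ERF11, with 8 and 2 reads, and ERF105, with 18 and 3 reads, were low in A. arenosa as well.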
